A study of Mus musculus with 24 samples.

Results

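Wild-type mouse hearts that had gone through ischemia-reperfusion (I/R) were set against sham-operated wild-type hearts, in the tissue below the tie on the left anterior descending (LAD) coronary artery. The arrays were chosen by their titles, wild type, below the LAD, I/R or sham, replicates 1 to 3, which gave 6 of the 24 arrays of the series: 3 from I/R hearts and 3 from sham hearts. In the I/R group the artery was tied and later released, and the tissue below the tie was taken. In the sham group the tissue came from below the place where a tie would have been put. All 6 hearts were labelled MuRF1+/+ and came from mice 12 to 16 weeks old, each replicate being a separate heart. The labels call the groups strain-matched but name a strain, C57BL/6, only for the pups of the common comparison sample, and how long ischemia and reperfusion lasted is not stated in the labels used here. The other 18 arrays (tissue above the tie, and hearts labelled MuRF1 Tg+) enter here through the shared estimate of the spread and through 2 comparisons near the end.

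Each array compared heart RNA, labelled with the red dye Cy5, with RNA pooled from whole day 1 pups, labelled with the green dye Cy3. A log2 ratio above 0 therefore means that a transcript made up more of the heart RNA than of the pup RNA, and the I/R minus sham difference of that ratio is the change reported here, with ± its standard error (SE) from a limma fit and 3 arrays in each group. Of 27670 genes and unnamed transcripts on the array, 11419 were bright enough to test. A feature was called when its Benjamini-Hochberg adjusted p was under 0.05. Both samples are mixtures of cell types, so that fewer cells of a type and less RNA per cell cannot be told apart.

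When a coronary artery is reopened after a period of ischemia, heart muscle meets a burst of reactive oxygen and calcium overload, and neutrophils and then monocytes enter the injured wall. Cytokines of the interleukin-6 (IL-6) family signal through the receptor chain gp130 and STAT3, whose targets include the feedback inhibitor Socs3 and the transcription factors Cebpb and Cebpd. Metallothioneins are small cysteine-rich proteins that bind zinc and copper and scavenge oxidants, and their genes are switched on by metals, glucocorticoids and cytokines.

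The heart channel of I/R replicate 1 was weak, which bears on every value below. Cy5 spots well above background made up 9.90%, 38.3% and 37.9% of all spots on I/R replicates 1 to 3, against 34.9%, 43.3% and 36.8% on sham replicates 1 to 3. The group means were 28.7% ± 16.3 in I/R and 38.3% ± 4.37 in sham (SD, n = 3 each), a difference of -9.64 percentage points with an exact two-sided permutation p of 0.6, where 3 against 3 arrays cannot go below 0.1. The pup channel lay between 47.1% and 51.5% on these 6 arrays. Over the tested features I/R replicate 1 correlated with the other 5 arrays at 0.615 to 0.688, I/R replicates 2 and 3 with each other at 0.983, and the sham arrays with each other at 0.971 to 0.982. The median SD of a feature was 0.22 in the I/R group, 0.068 between I/R replicates 2 and 3 alone, and 0.095 in the sham group. The limma fit assumes 1 spread per feature in all 8 groups of the series. This I/R group had the largest median SD, against 0.075 to 0.17 in the other groups. The SE and p-values below can therefore be too small where I/R replicate 1 departs from the other 2. Values are therefore given array by array and also without I/R replicate 1. Only 1 slide held both groups, with I/R replicate 3 and sham replicate 3. I/R replicates 1 and 2 shared another slide, and sham replicates 1 and 2 were each on a slide without wild-type I/R tissue from below the tie. The difference between the 2 arrays of the shared slide is given as the same-slide difference.

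**Figure D1:**
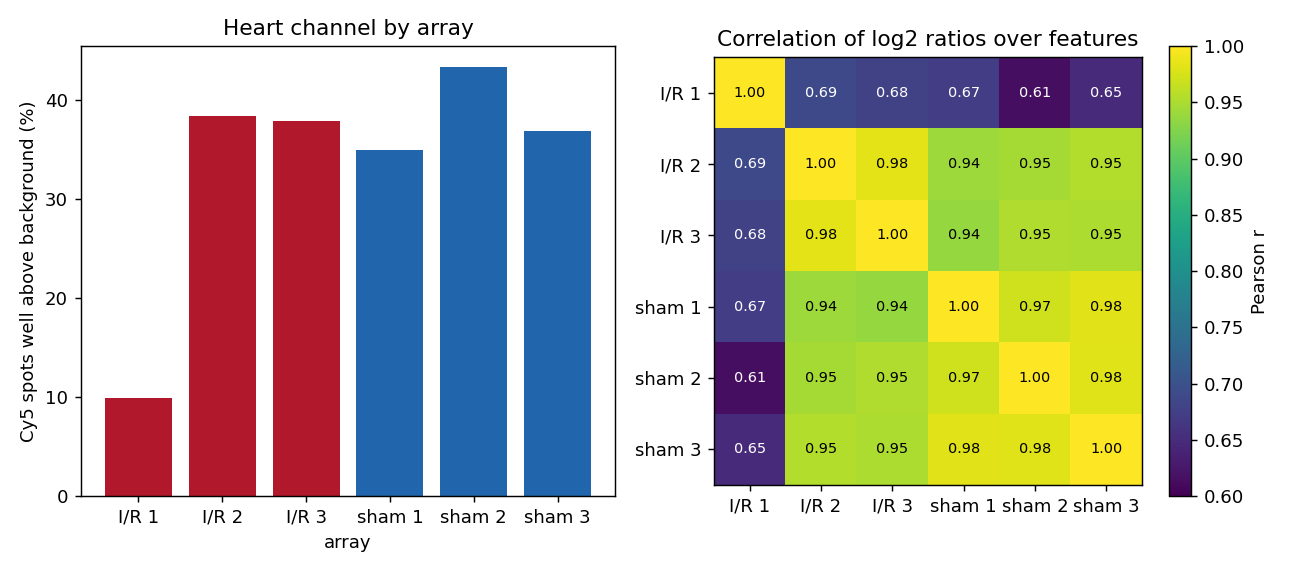
The left panel shows, for each of the 6 arrays (I/R red, sham blue), the percentage of Cy5 spots well above background, as bars from 0. The right panel shows Pearson correlations of log2 ratios between arrays over the tested features. I/R replicate 1 stands apart in both panels, with 9.90% of spots and correlations of 0.615 to 0.688, while I/R replicates 2 and 3 correlate at 0.983.

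The labelled tissue was checked on markers of ventricular heart muscle. Of 12 such markers 11 were tested, and none was called in the limma fit (2 had an unadjusted p under 0.05). Their differences leaned lower, with a median of -0.34, 8 negative and 3 positive. Without I/R replicate 1, 10 were negative and 1 positive. The same-slide median was -0.81, with 10 markers lower and none higher, against -0.008 over all tested features. The mean log2 ratio of the markers was 3.75, 3.64 and 3.27 on I/R replicates 1 to 3, against 3.99, 3.32 and 3.97 on sham replicates 1 to 3. The heart RNA thus held far more of these transcripts than the pup RNA on every array. Cardiac myosin-binding protein C (Mybpc3) had ratios of 6.63, 6.09 and 5.60 in I/R, against 6.66, 5.84 and 6.59 in sham, and the groups overlapped. Trim63, which encodes the ubiquitin ligase MuRF1 after which the mouse lines are named, had ratios of 0.41, 2.23 and 2.33 in I/R hearts, against 2.24, 2.26 and 2.55 in sham hearts. I/R replicates 2 and 3 lay close to the sham values and replicate 1 lay far below them. The difference of -0.69 ± 0.39 did not pass (limma adjusted p = 0.327), and without I/R replicate 1 it was -0.071 (adjusted p = 0.934).

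In all 641 of 11419 features were called (5.61%), 244 higher after I/R (2.14%) and 397 lower (3.48%). Counts of called list members below are to be read beside these shares. Without I/R replicate 1, 209 were higher (1.83%) and 262 lower (2.29%). The 2 sets shared 310 features with the same direction, 331 were called only with replicate 1 in the fit and 161 only without it. In 126 features (1.1%) the call of an increase was made with and without replicate 1 and all 3 I/R values lay above all 3 sham values, and in 181 (1.59%) the same held for a decrease. These 307 are called steady features below. Groups that did not overlap were far more common than calls: all I/R values lay above all sham values in 1074 features (9.41%) and below them in 1536 (13.5%). With slide as a block, in a design where slide and group are largely confounded, 25 features remained, all of them steady. Of the 90 genes named by rule that were called, 82 lost their call with the slide block. Among the calls in the gene groups described next, those of Uck2, Rras2, Socs3, Ppargc1b, Cxcl12, Lmod3, Cebpd and Ccnd2 passed with it and the others did not. A limma fit of the 6 arrays alone gave no call, while 1406 had an unadjusted p under 0.05, against 2363 in the fit of 24 arrays. Leaving out sham replicate 1, 2 or 3 left 288, 273 and 263. On Agilent's own log ratios 169 features rose and 159 fell, so 51.5% of the calls were increases, against 38.1% here.

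**Figure D2:**
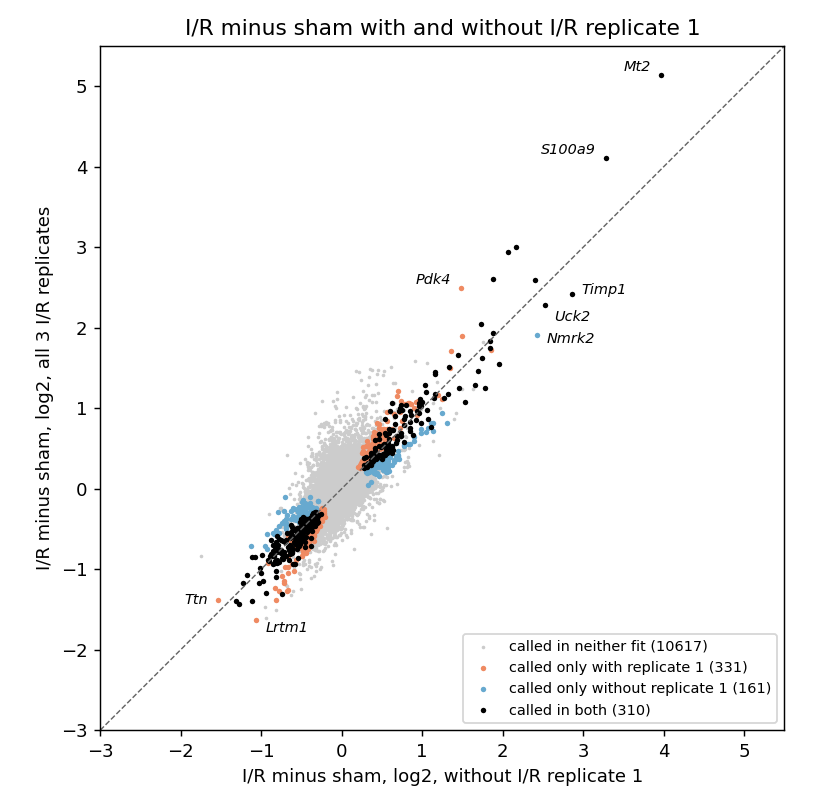
Each point is 1 of the 11419 tested features, with the I/R minus sham difference in log2 units without I/R replicate 1 on the x axis and with all 3 I/R replicates on the y axis. Colours show in which fit a feature was called. Mt2 lies at 3.97 on the x axis and 5.13 on the y axis, and Timp1 and Nmrk2 lie below the dashed line of equal values.

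The largest increase was that of metallothionein 2 (Mt2), and metallothionein 1 (Mt1) was also among the 12 largest. The 250 bases before the start of each gene are shown because both genes are known targets of the zinc-sensing factor MTF-1, which binds metal response elements. Capitals mark the core of that element, searched as TGCACNC or TGCGCNC on either strand. The sequences are from RefSeq, build GRCm38.p6, on the plus strand, at chr8:94172368-94172617 for Mt2 and chr8:94178839-94179088 for Mt1. Each window was cut at the start of the transcript as annotated there, and the start used in heart was not measured.
Mt2: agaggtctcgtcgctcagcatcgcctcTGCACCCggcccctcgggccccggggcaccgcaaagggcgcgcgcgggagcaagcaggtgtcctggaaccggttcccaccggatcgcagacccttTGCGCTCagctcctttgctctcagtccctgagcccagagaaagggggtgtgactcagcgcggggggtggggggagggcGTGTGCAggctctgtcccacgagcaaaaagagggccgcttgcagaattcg
Mt1: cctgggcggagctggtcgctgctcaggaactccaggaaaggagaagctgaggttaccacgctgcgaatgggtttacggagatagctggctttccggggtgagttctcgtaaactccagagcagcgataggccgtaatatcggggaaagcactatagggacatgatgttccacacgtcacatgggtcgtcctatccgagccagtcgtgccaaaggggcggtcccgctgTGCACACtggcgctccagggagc
The Mt2 window held 3 matches and the Mt1 window 1. Of 32841 promoter windows of that length, 21.4% held at least 1 match and 0.77% at least 3. These matches describe letters in the sequence, and binding was not measured. Bases past the windows were not searched, so the counts do not rank the 2 genes by their elements.

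Mt2 had log2 ratios of 4.83, 1.36 and 1.29 on I/R replicates 1 to 3, against -2.70, -2.65 and -2.58 on sham replicates 1 to 3. The groups did not overlap, and the weak array was the highest. The difference was 5.13 ± 0.75 (adjusted p = 0.000641), which without I/R replicate 1 became 3.97 (adjusted p = 0.00106), a 15.6-fold increase, and the same-slide difference was 3.87. With slide as a block the call ended (adjusted p = 0.0728). Mt1 had ratios of 3.53, 1.36 and 1.33 in I/R, against -0.53, -0.52 and -0.55 in sham, with a difference of 2.61 ± 0.49 (adjusted p = 0.00473) and of 1.88 without replicate 1, and an adjusted p of 0.215 with slide as a block. Sham values of Mt1 lay within an SD of 0.015. Of 5 tested members of the list of metallothioneins and zinc transporters, these 2 rose and none fell. The zinc importer Slc39a14 had ratios of 0.24, 1.51 and 1.04 in I/R, against 0.68, 0.72 and 0.76 in sham. Its difference of 0.21 ± 0.21 did not pass with all arrays (adjusted p = 0.599) but did without replicate 1 (0.55, adjusted p = 0.0448). The exporter Slc30a1 had a difference of -0.16 ± 0.13 that did not pass (adjusted p = 0.507).

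**Figure D3:**
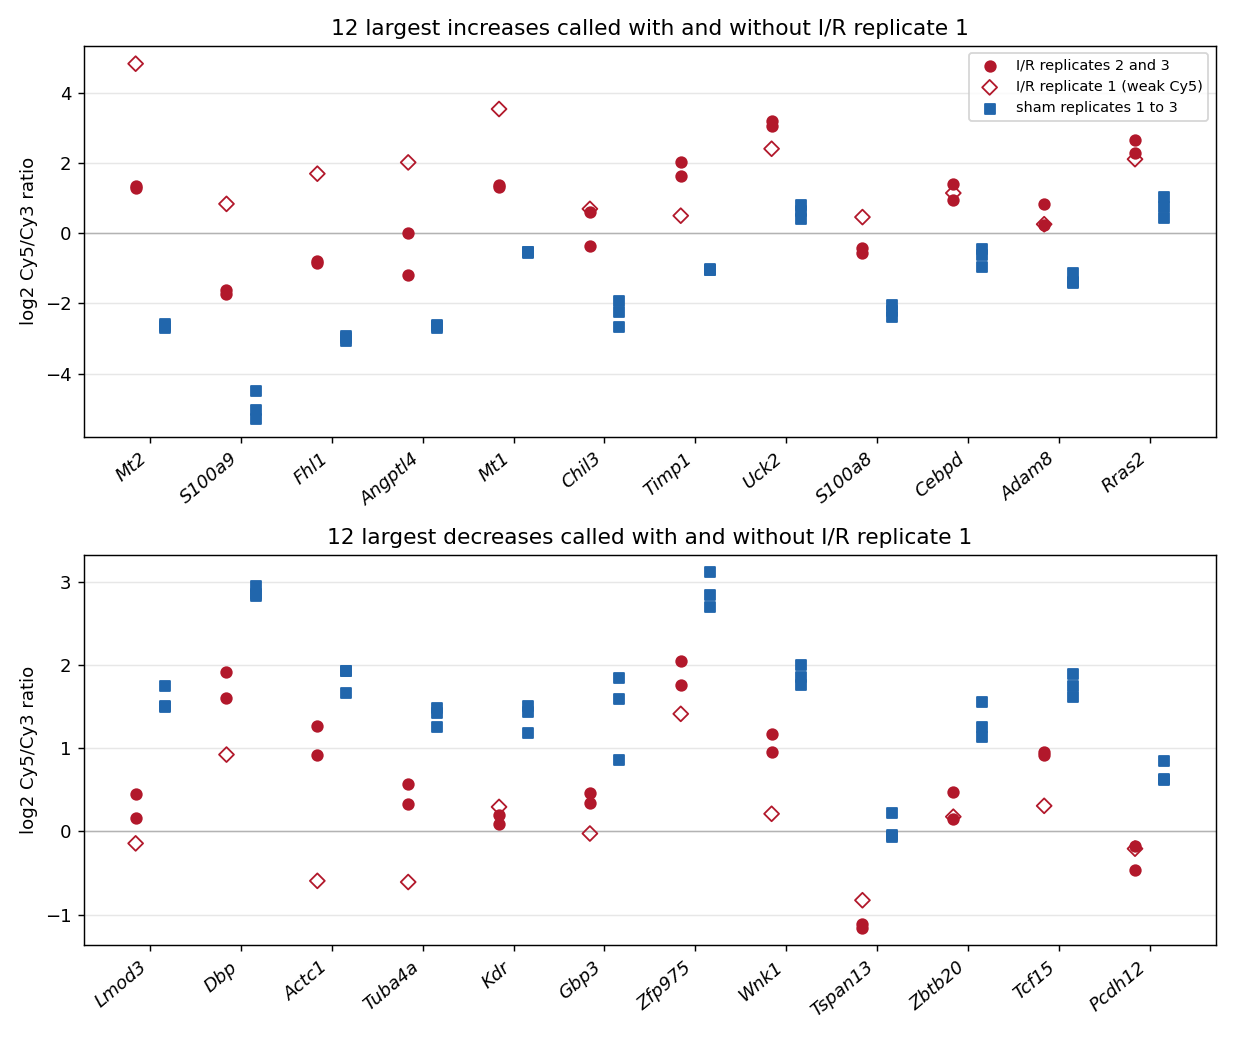
Log2 Cy5/Cy3 ratios on each array for the 12 largest increases (top) and the 12 largest decreases (bottom) among the steady features. Red circles are I/R replicates 2 and 3, open red diamonds I/R replicate 1 and blue squares the 3 sham arrays, drawn to the right of the I/R values. In the top panel the diamond lies above both circles for Mt2, S100a9, Fhl1, Angptl4 and Mt1, and below both for Timp1 and Uck2.

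Neutrophil transcripts were among the increases. Of 15 neutrophil markers 8 were tested, of which 5 rose and none fell with all arrays, and 4 rose without I/R replicate 1. Of the 8, 7 were not well above background on at least 1 sham array, and a member kept for its signal in I/R hearts could hardly be other than higher there, so the count is a description and supports nothing further. Their mean ratio ran from -0.75 to 0.13 on I/R arrays, against -1.76 to -1.58 on sham arrays. S100a9, a chain of the neutrophil calcium-binding protein calprotectin, had ratios of 0.83, -1.72 and -1.62 in I/R hearts, against -5.05, -4.51 and -5.29 in sham hearts. Every I/R array was above every sham array, and without replicate 1 the increase was 3.28 (adjusted p = 0.00767), or 9.7-fold, and with slide as a block it did not pass (adjusted p = 0.215). The other chain, S100a8, had ratios of 0.46, -0.56 and -0.43 in I/R, against -2.05, -2.39 and -2.21 in sham, and a difference of 2.04 ± 0.37. Resistin-like gamma (Retnlg), made by neutrophils, was well above background on all 3 I/R arrays and on none of the sham arrays. Its ratios were 0.60, 0.16 and 0.57 in I/R, against -0.50, -0.76 and -0.64 in sham, a difference of 1.08 ± 0.23 (limma adjusted p = 0.0103). The call was lost on leaving out sham 2 (adjusted p = 0.0515). Set against the dimmest probes well above background, Retnlg was at least 2.02-fold higher in I/R. Above background on I/R arrays alone among the 6, it could hardly be other than higher there, so this call is a description. Lipocalin 2 (Lcn2), a neutrophil granule protein that stressed tissue also makes, had ratios of 0.08, 1.76 and 1.58 in I/R, against -0.011, -0.24 and -0.085 in sham. It was high on replicates 2 and 3 and nearer to sham on the weak array. Its call (difference 1.25 ± 0.36) was lost on leaving out I/R 2, I/R 3, sham 1, sham 2 or sham 3 (largest adjusted p = 0.143), and without I/R replicate 1 the difference was 1.78 (adjusted p = 0.00245).

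Of 22 tested monocyte and macrophage markers 3 rose and none fell, and the list median was 0.31. In 11 of them all I/R values lay above all sham values, against 9.41% of all tested features. Of the 22 differences 15 were positive and 7 negative, and without I/R replicate 1 these counts were 19 and 3. On at least 1 I/R array 17 of the 22 were not well above background, against 4 on a sham array. What this adds to the result was not tested. Chil3, a chitinase-like protein of activated macrophages and of neutrophils, had ratios of 0.69, 0.60 and -0.35 in I/R, against -1.92, -2.66 and -2.25 in sham, a 6.02-fold increase (difference 2.59 ± 0.35, adjusted p = 0.000472, or 0.0618 with slide as a block). Lgals3, the macrophage lectin galectin 3, had ratios of -0.42, -0.79 and -0.65 in I/R, against -1.41, -1.45 and -1.61 in sham. Its difference was 0.87 ± 0.17. S100a8, Lcn2 and Chil3 were each well above background on 1 of the 3 sham arrays. S100a8 and Chil3 were so on all 3 I/R arrays. Among the arrays compared, these 2 genes were bright enough to test only through the I/R group. A higher value there was favoured in advance, so their calls and fold changes are a description. Fcer1g, the signalling chain shared by Fc receptors, differed by 0.43 ± 0.085. Of the other monocyte and macrophage markers, Adgre1 differed by -0.15 ± 0.13 (adjusted p = 0.552) and Cd68 by 0.13 ± 0.072 (adjusted p = 0.319). Neither passed. Adam8, a membrane protease of myeloid cells, was among the steady increases, with ratios of 0.25, 0.82 and 0.23 in I/R, against -1.14, -1.38 and -1.41 in sham. It was well above background on 3 I/R arrays and 2 sham arrays, so its call too is a description. Among lymphocyte markers 1 of 12 was bright enough to test, Cd79b of B cells, with a difference of 0.027 ± 0.12 that did not pass (adjusted p = 0.923).

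Among the chemokines tested, Ccl2, which draws monocytes, had ratios of 0.67, 1.67 and 1.85 in I/R, against 0.12, 0.18 and 0.019 in sham. All I/R values were higher, replicates 2 and 3 by most, and the difference was 1.29 ± 0.27 (adjusted p = 0.00776) and 1.65 without replicate 1. Ccl7, another monocyte attractant, differed by 0.77 ± 0.21 with a call lost on leaving out I/R 2, I/R 3, sham 1, sham 2 or sham 3 (largest adjusted p = 0.126), and by 1.12 without replicate 1 (adjusted p = 0.000704). Cxcl12, a stromal chemokine that holds progenitor and immune cells in tissue, went the other way. Its ratios were -0.15, 0.065 and 0.21 in I/R, against 1.20, 0.91 and 0.78 in sham, a difference of -0.92 ± 0.13 (adjusted p = 0.000573) that also passed with slide as a block (adjusted p = 0.024). Of 10 tested cytokines and chemokines, 2 rose and 1 fell.

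The IL-6 family list had 4 of 12 tested members higher and none lower, with a median of 0.51, or 0.64 without I/R replicate 1. Socs3, the feedback inhibitor of this pathway, had ratios of 0.43, 0.33 and 0.38 in I/R, against -0.46, -0.69 and -0.61 in sham. The 3 I/R arrays were close to each other. The difference of 0.97 ± 0.12 (adjusted p = 0.000119) hardly moved without replicate 1 (0.94) and passed with slide as a block (adjusted p = 0.0188). The transcription factor Cebpd had ratios of 1.14, 0.93 and 1.40 in I/R, against -0.63, -0.97 and -0.45 in sham, a 3.58-fold increase that likewise passed with the slide block (adjusted p = 0.025). Cebpb differed by 1.20 ± 0.21 (adjusted p = 0.00236). Osmr, the receptor of oncostatin M, had ratios of 0.51, 1.17 and 1.09 in I/R, against 0.21, -0.10 and 0.07 in sham, with a difference of 0.86 ± 0.18 whose call was lost on leaving out sham 2 (adjusted p = 0.0559). Stat3 itself differed by 0.47 ± 0.28 and did not pass (adjusted p = 0.352), nor did the receptor chains Il6st and Lifr or the kinases Jak1 and Jak2. Bcl3, a coactivator of NF-kappaB, was called without replicate 1 (0.78, adjusted p = 0.00838) and not with it (adjusted p = 0.0791).

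Of 27 tested interferon response and antigen presentation genes 5 fell and none rose, all 27 differences were negative, and the median was -0.42, or -0.36 without I/R replicate 1. The class II molecule H2-Eb1 had ratios of -0.13, 0.32 and 0.26 in I/R, against 0.92, 0.91 and 0.65 in sham, and fell by 0.67 ± 0.12 on the log2 scale (adjusted p = 0.00302). The groups did not overlap. The invariant chain Cd74, which guards class II molecules until they load peptide, had ratios of -0.014, 0.43 and 0.63 in I/R, against 1.35, 0.95 and 0.94 in sham, and the class II chain H2-Ab1 had ratios of -0.014, 0.77 and 0.82, against 1.79, 1.51 and 1.20. Their differences were -0.73 ± 0.16 and -0.97 ± 0.24, with the first call lost on leaving out I/R 1 or sham 1 (largest adjusted p = 0.08) and the second lost on leaving out I/R 1, sham 1 or sham 2 (largest adjusted p = 0.102). Gbp3, an interferon-induced GTPase, had ratios of -0.025, 0.34 and 0.46 in I/R, against 1.59, 1.84 and 0.86 in sham, where sham replicate 3 lay well below the other 2. The difference of -1.17 ± 0.24 had a call lost on leaving out sham 2 (adjusted p = 0.0583). Beta-2 microglobulin (B2m), the light chain of class I, was called without replicate 1 (-0.93, adjusted p = 0.0364) and not with it (adjusted p = 0.0658). The mean ratio of the list was -0.053, 0.19 and 0.24 on I/R replicates 1 to 3, against 0.62, 0.81 and 0.35 on sham replicates 1 to 3. Sham replicate 3, the array on the shared slide, was the lowest of the sham arrays, and the same-slide median was -0.13, with 17 members lower and 10 higher. On I/R replicate 1 or another I/R array 22 of the 27 were not well above background, and the part of this in the result was not tested.

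Of 20 tested members of the list of NRF2 targets and related enzymes, 6 rose and none fell, and the list median was 0.42, and 0.41 without I/R replicate 1, where 4 passed. Heme oxygenase 1 (Hmox1), which breaks down heme, had ratios of 0.27, -0.074 and -0.41 in I/R, against -1.58, -1.46 and -1.70 in sham, a 2.85-fold increase (difference 1.51 ± 0.21, adjusted p = 0.000573, or 0.0698 with slide as a block). Thioredoxin (Txn1) had ratios of 0.39, 0.032 and 0.20 in I/R, against -0.32, -0.23 and -0.35 in sham, and rose by 0.51 ± 0.10. Its reductase Txnrd1 rose by 0.72 ± 0.16 and the autophagy adaptor Sqstm1 by 1.09 ± 0.26, with the first call lost on leaving out I/R 1 (adjusted p = 0.0563) and the second lost on leaving out I/R 1, sham 1, sham 2 or sham 3 (largest adjusted p = 0.0818). Of 16 tested heat shock proteins and co-chaperones, 2 rose and none fell with all arrays and none passed without replicate 1. The inducible chaperone Hspa1a had ratios of 0.38, -0.49 and 0.39 in I/R, against -1.47, -1.48 and -1.25 in sham, and a difference of 1.49 ± 0.34, a call lost on leaving out I/R 1, sham 1 or sham 2 (largest adjusted p = 0.0604). In the unfolded protein and ATF4 list 1 of 20 rose and 1 fell. Atf3, a stress-induced factor, had ratios of -0.015, 1.11 and 0.70 in I/R, against -0.34, -0.42 and -0.28 in sham, and was called without replicate 1 alone (1.25, adjusted p = 0.0216, against 0.0675 with all arrays).

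Of 15 tested glucocorticoid response genes 4 rose and none fell, and the list median was 0.54, or 0.34 without replicate 1. Besides Cebpd and Lcn2 these were the cell cycle inhibitor Cdkn1a, with ratios of -0.022, -0.46 and -0.24 in I/R, against -1.19, -1.20 and -1.22 in sham (difference 0.96 ± 0.17), and the mTOR inhibitor Ddit4, whose call (difference 1.05 ± 0.29) was lost on leaving out I/R 1, I/R 3, sham 1, sham 2 or sham 3 (largest adjusted p = 0.163). Of 16 tested immediate early genes 2 rose. Maff, a small partner of NRF2-type factors, had ratios of 1.21, 0.98 and 0.64 in I/R, against -0.067, -0.36 and -0.068 in sham, and Junb differed by 1.06 ± 0.24, a call lost on leaving out I/R 1, sham 2 or sham 3 (largest adjusted p = 0.056). The early genes Egr1 (0.31 ± 0.20, adjusted p = 0.405) and Jun (0.11 ± 0.10, adjusted p = 0.577) did not pass. In the cell death list 3 of 21 rose and none fell: the tumour necrosis factor receptor Tnfrsf1a (0.65 ± 0.13) and the growth arrest genes Gadd45b (0.53 ± 0.10) and Gadd45g (1.72 ± 0.38). The Gadd45g call was lost on leaving out I/R 1 or sham 3 (largest adjusted p = 0.0522).

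Of 15 tested genes of the circadian clock and its output 2 rose and 5 fell, and without I/R replicate 1 these counts were 1 and 4. On at least 1 I/R array 12 of the 15 were not well above background, against 2 on a sham array. The part of this in the result was not tested. The proline and acidic amino acid-rich factors Dbp, Tef and Hlf, which carry clock time to other genes, were lower on all 3 I/R arrays. Dbp had ratios of 0.92, 1.91 and 1.60 in I/R, against 2.94, 2.85 and 2.83 in sham, where the sham arrays were within an SD of 0.06. The difference was -1.39 ± 0.24 (adjusted p = 0.0023), a 2.63-fold fall, or 2.17-fold without replicate 1, and with slide as a block the adjusted p was 0.107. Tef had ratios of -0.028, 0.39 and 0.083 in I/R, against 1.01, 1.09 and 1.00 in sham, and differed by -0.89 ± 0.14, and Hlf differed by -0.53 ± 0.12. Nfil3, a repressor that binds the same DNA sites as these 3 factors, went up, with ratios of 0.32, 0.72 and 0.74 in I/R, against -0.57, -0.56 and -0.48 in sham, and a difference of 1.13 ± 0.20 (adjusted p = 0.00307). Ciart, a repressor of the core clock, was well above background on no I/R array and on all sham arrays. It was at least 1.37-fold lower in I/R (limma adjusted p = 0.00626). Above background on sham arrays alone among the arrays compared, Ciart could hardly be other than lower in I/R. Its call, which is among the 5 that fell, is therefore a description. The core activator Arntl rose by 0.40 ± 0.11, a call lost without replicate 1 (adjusted p = 0.0653), and the deubiquitinase Usp2 fell by 0.57 ± 0.16, a call lost on leaving out I/R 1, sham 1, sham 2 or sham 3 (largest adjusted p = 0.198). The core repressors Per1 (0.039 ± 0.10, adjusted p = 0.858), Per2 (-0.015 ± 0.088, adjusted p = 0.944) and Nr1d1 (-0.36 ± 0.22, adjusted p = 0.378) did not pass. The hour of harvest is not stated in the labels used here, and its part in these values was not tested.

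Of 16 tested calcium handling genes 4 fell and none rose, and the median was -0.55. Of these, 2 were steady, and both belong to the complex at the junction of the sarcoplasmic reticulum, where the muscle cell's calcium store meets the surface membrane. Triadin (Trdn), which anchors the calcium release channel there, had ratios of 1.04, 1.57 and 1.42 in I/R, against 2.43, 1.92 and 2.19 in sham, and differed by -0.84 ± 0.17 (adjusted p = 0.00615). Asph, whose products include the partner protein junctin, had ratios of -0.029, 0.76 and 0.57 in I/R, against 1.47, 1.07 and 1.41 in sham, and differed by -0.88 ± 0.18. The luminal calcium binder sarcalumenin (Srl) and the kinase Camk2d also fell, by 0.72 ± 0.19 and 0.56 ± 0.14, with the first call lost on leaving out I/R 1, sham 1, sham 2 or sham 3 (largest adjusted p = 0.144) and the second lost on leaving out I/R 1, sham 1, sham 2 or sham 3 (largest adjusted p = 0.113). Without the weak array the list median was -0.25. Phospholamban (Pln), the brake on the calcium pump, had ratios of 2.07, 4.56 and 4.99 in I/R, against 4.15, 5.12 and 4.59 in sham, and the sodium-calcium exchanger Slc8a1 had ratios of -0.052, 1.46 and 1.35, against 1.17, 1.71 and 1.33. In both genes replicates 2 and 3 lay among or close to the sham arrays. The release channel Ryr2 (0.089 ± 0.20, adjusted p = 0.838) and the pump Atp2a2 (0.31 ± 0.39, adjusted p = 0.687) did not pass.

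**Figure D4:**
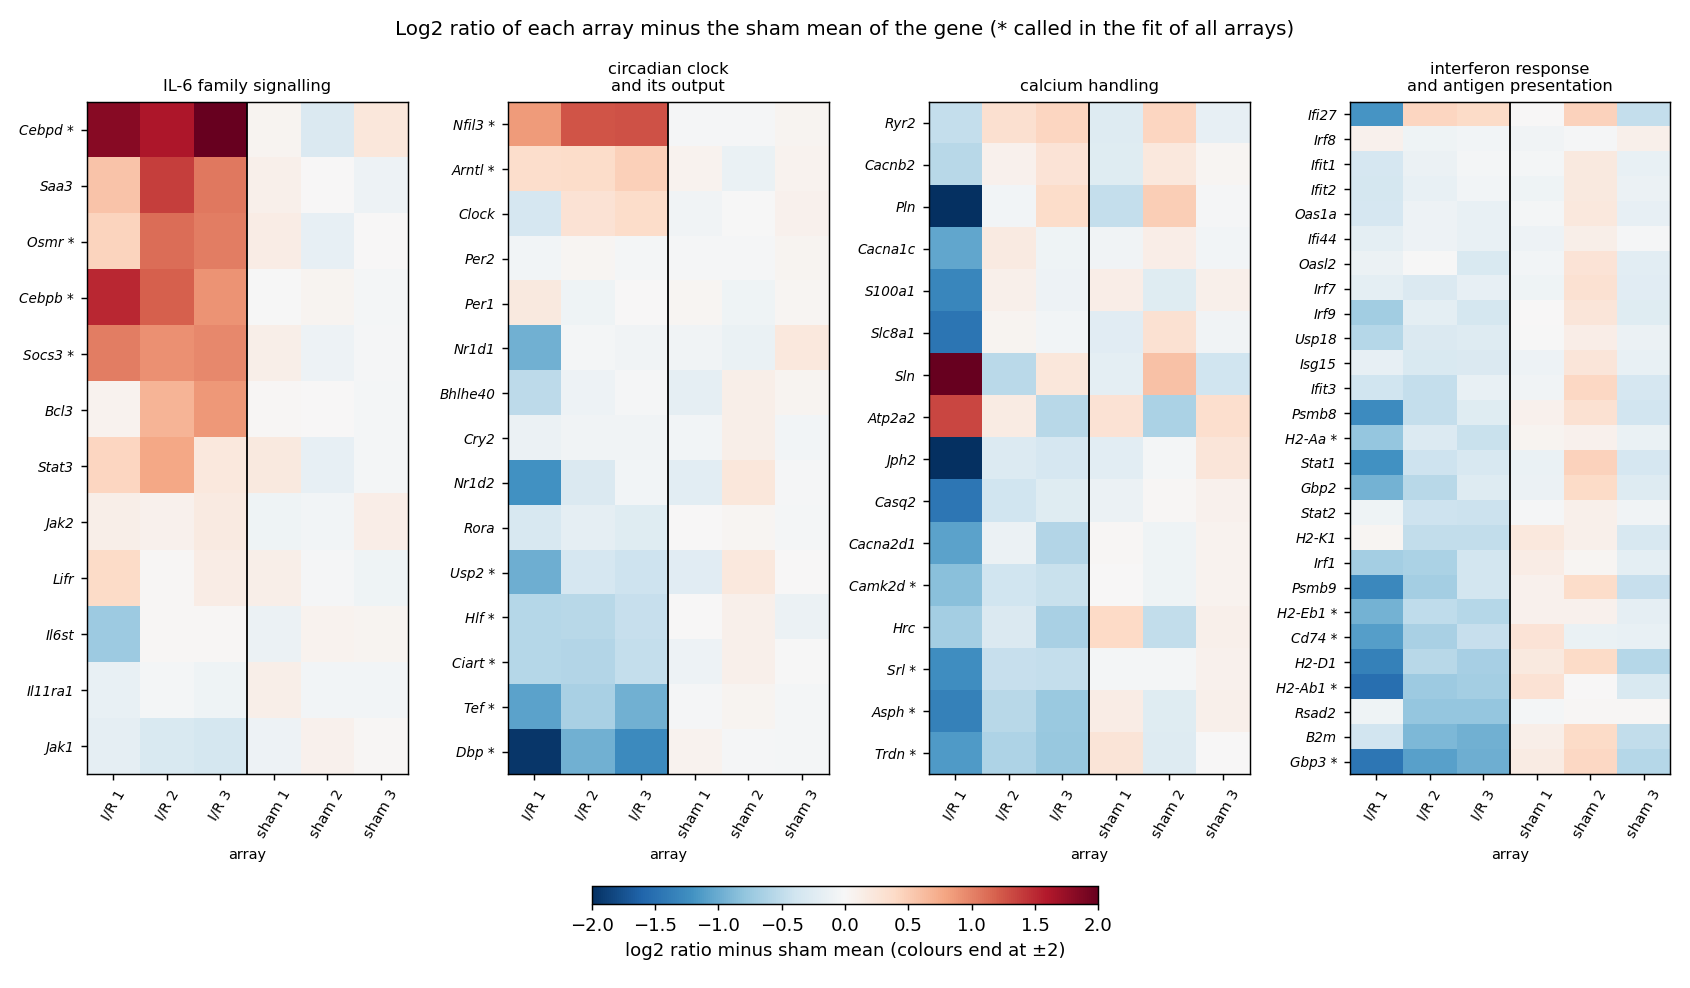
Each panel is 1 gene list and each cell 1 gene on 1 array, coloured by the log2 ratio of that array minus the mean of the 3 sham arrays, red above and blue below. The 3 I/R arrays are left of the black line and the 3 sham arrays right of it. Dbp, Tef, Hlf and Ciart are blue and Socs3, Cebpb and Cebpd red on all 3 I/R arrays, whereas Pln and Slc8a1 are dark blue on I/R replicate 1 and near 0 on the other 2.

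Of 29 tested sarcomere and Z-disc genes 3 fell and none rose. Leiomodin 3 (Lmod3), which builds the thin filament in muscle, had ratios of -0.14, 0.17 and 0.44 in I/R, against 1.75, 1.50 and 1.49 in sham. It was the largest steady decrease, 2.69-fold (difference -1.43 ± 0.19, adjusted p = 0.000472), and also passed with slide as a block (adjusted p = 0.025). Cardiac actin (Actc1) had ratios of -0.59, 0.92 and 1.26 in I/R, against 1.66, 1.92 and 1.92 in sham. The weak array was far below the others, and the difference of -1.31 ± 0.31 became -0.74 without it (adjusted p = 0.0315). The call was lost on leaving out sham 2 or sham 3 (largest adjusted p = 0.0783). Titin (Ttn) had ratios of 0.97, 0.89 and 0.10 in I/R, against 2.38, 1.63 and 2.10 in sham, with a difference of -1.38 ± 0.40, a call lost on leaving out any array (largest adjusted p = 0.171). Myosin heavy chains did not pass: Myh6 differed by -0.73 ± 0.39 (adjusted p = 0.301) and Myh7 by 1.82 ± 0.76 (adjusted p = 0.176). Tuba4a, an alpha tubulin, fell, with ratios of -0.61, 0.33 and 0.57 in I/R, against 1.49, 1.43 and 1.25 in sham, while the beta tubulin Tubb6, with ratios of 0.33, -0.29 and -0.61 in I/R, against -1.70, -1.54 and -1.59 in sham, rose. Their differences were -1.29 ± 0.21 and 1.42 ± 0.31.

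Among stretch response genes 2 of 14 rose and none fell. Fhl1, a LIM protein of the sarcomere induced in hypertrophy, had ratios of 1.69, -0.79 and -0.86 in I/R, against -3.06, -2.92 and -3.00 in sham, with a difference of 3.01 ± 0.56 that was 2.17 without replicate 1 (adjusted p = 0.0104) and did not pass with slide as a block (adjusted p = 0.23). The titin-linked repeat protein Ankrd1 had ratios of 5.05, 4.94 and 4.27 in I/R, against 3.55, 3.29 and 4.15 in sham. Sham replicate 3 was high, the same-slide difference was 0.13, and the call (difference 1.09 ± 0.28) was lost on leaving out I/R 1, I/R 2, sham 1 or sham 2 (largest adjusted p = 0.134). The natriuretic peptides Nppb (0.55 ± 0.50, adjusted p = 0.566) and Nppa (-0.011 ± 0.63, adjusted p = 0.99) did not pass, and sham replicate 3 was the highest sham array for both. A further 4 genes were called without replicate 1 and not with it, by increases: Nmrk2, a muscle kinase of the NAD salvage pathway (2.43, adjusted p = 0.0387), the calcineurin inhibitor Rcan1 (1.31, adjusted p = 0.00459), Atf3, and the TWEAK receptor Tnfrsf12a (1.13, adjusted p = 0.0497). Nmrk2 had ratios of 2.20, 4.25 and 3.25 in I/R, against 1.05, 1.10 and 1.81 in sham, all I/R values above all sham values, and an adjusted p of 0.0766 with all arrays.

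Of 25 tested genes of the extracellular matrix 3 rose and none fell, and the median was 0.23 with and -0.13 without replicate 1. Timp1, an inhibitor of matrix metalloproteinases, had ratios of 0.50, 2.02 and 1.62 in I/R, against -1.02, -1.04 and -1.05 in sham. The 3 sham values were nearly equal (SD 0.014), and the increase was 5.35-fold (difference 2.42 ± 0.43, adjusted p = 0.00293) and 7.27-fold without replicate 1. With slide as a block it did not pass (adjusted p = 0.0989). Thrombospondin 4 (Thbs4), a matrix protein of stressed heart, had ratios of -0.068, -0.78 and -1.08 in I/R, against -2.02, -2.08 and -2.16 in sham, and rose by 1.45 ± 0.22. Ccn2, a growth factor of scar formation, rose by 1.90 ± 0.53, a call lost on leaving out I/R 1, I/R 2, sham 1, sham 2 or sham 3 (largest adjusted p = 0.151). The collagens Col1a1 (0.78 ± 0.70, adjusted p = 0.558) and Col3a1 (0.23 ± 0.45, adjusted p = 0.804) and periostin (Postn, 0.54 ± 0.47, adjusted p = 0.548) did not pass. Of 14 fibroblast markers 1 fell, Pi16, by 0.70 ± 0.19, a call lost on leaving out I/R 2, sham 1, sham 2 or sham 3 (largest adjusted p = 0.15), and the list median was 0.16 with replicate 1 and -0.29 without it.

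Of 18 tested endothelial markers 2 fell and none rose, and the median was -0.21, and -0.23 without replicate 1. In 9 of them all I/R values lay below all sham values, against 13.5% of all tested features. Kdr, the main receptor for VEGF on endothelium, had ratios of 0.29, 0.20 and 0.093 in I/R, against 1.43, 1.19 and 1.50 in sham. The 3 I/R arrays were close together, so that the 2.26-fold fall (difference -1.18 ± 0.21, adjusted p = 0.00268) did not rest on the weak array (-1.23 without it). It did not pass with slide as a block (adjusted p = 0.0556). The angiopoietin receptor Tek fell by 0.35 ± 0.086, a call lost on leaving out I/R 1, sham 2 or sham 3 (largest adjusted p = 0.1). The general endothelial markers Pecam1 (-0.22 ± 0.14, adjusted p = 0.406) and Cdh5 (-0.35 ± 0.29, adjusted p = 0.519) did not pass. Among the steady decreases were also the endothelial protocadherin Pcdh12, with ratios of -0.21, -0.46 and -0.17 in I/R, against 0.85, 0.63 and 0.62 in sham, and Tcf15, a transcription factor of heart endothelium, with ratios of 0.31, 0.92 and 0.95 in I/R, against 1.62, 1.89 and 1.74 in sham. Their differences were -0.98 ± 0.19 and -1.03 ± 0.22, and the Tcf15 call was lost on leaving out sham 2 (adjusted p = 0.0506). Of 10 tested smooth muscle and pericyte markers 2 fell, the pericyte gene Rgs5 by 0.94 ± 0.23 and the potassium channel Kcnj8 by 0.48 ± 0.12, with the first call lost on leaving out I/R 1, sham 1, sham 2 or sham 3 (largest adjusted p = 0.0826) and the second lost on leaving out I/R 1, sham 1, sham 2 or sham 3 (largest adjusted p = 0.109).

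Of 13 tested regulators of fuel use 2 rose and 2 fell. Angptl4, an inhibitor of lipoprotein lipase, had ratios of 2.01, 0.0048 and -1.18 in I/R, against -2.62, -2.66 and -2.70 in sham. The I/R arrays spread widely, all above sham, and the difference of 2.94 ± 0.64 became 2.07 without replicate 1 (adjusted p = 0.0423), and with slide as a block the adjusted p was 0.217. Pdk4, the kinase that shuts pyruvate dehydrogenase, had ratios of 4.18, 1.17 and 1.10 in I/R, against -0.45, -0.45 and -0.14 in sham, and its call (difference 2.50 ± 0.70) was lost on leaving out I/R 1, sham 1, sham 2 or sham 3 (largest adjusted p = 0.178). Ppargc1b, a coactivator of mitochondrial genes, had ratios of -0.13, -0.32 and -0.17 in I/R, against 0.50, 0.64 and 0.74 in sham. It fell 1.78-fold (difference -0.83 ± 0.099, adjusted p = 0.000119), also with slide as a block (adjusted p = 0.024). The fatty acid receptor Ppara fell by 0.50 ± 0.13, a call lost on leaving out I/R 1, sham 2 or sham 3 (largest adjusted p = 0.142). None of 26 fatty acid oxidation genes and none of 46 respiratory chain and ATP synthase genes was called in the limma fit of 24 arrays or in the fit without replicate 1, while 5 and 3 had an unadjusted p under 0.05 with all arrays. For the respiratory chain the median was 0.23 with replicate 1 and -0.093 without it, and the mean ratio was 2.76, 1.80 and 1.82 on I/R replicates 1 to 3, against 1.99, 1.74 and 1.91 on sham replicates 1 to 3. Of 22 glycolysis genes 2 rose and 4 fell. The glucose transporter Slc2a1 had ratios of 0.46, 0.84 and 0.54 in I/R, against -0.17, -0.21 and -0.32 in sham, and rose by 0.85 ± 0.22, a call lost on leaving out I/R 2, sham 1, sham 2 or sham 3 (largest adjusted p = 0.113). The muscle phosphofructokinase Pfkm had ratios of 0.72, 1.14 and 1.04 in I/R, against 1.77, 1.62 and 1.78 in sham, and fell by 0.76 ± 0.13 (adjusted p = 0.00274), and the muscle phosphoglycerate mutase Pgam2 fell by 0.61 ± 0.14, a call lost on leaving out sham 1 or sham 3 (largest adjusted p = 0.0988).

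Of 16 tested nucleolar and ribosome assembly genes 6 rose and none fell. Without replicate 1 the count was 3, and the median moved to 0.18, against 0.39. Eif1a, a translation initiation factor, had ratios of 0.10, 0.43 and 0.28 in I/R, against -0.40, -0.47 and -0.14 in sham, and rose by 0.61 ± 0.094 (adjusted p = 0.00113). Bop1, which processes ribosomal RNA, rose by 0.42 ± 0.079, and nucleophosmin (Npm1) by 0.74 ± 0.19 with a call lost on leaving out I/R 1, sham 1, sham 2 or sham 3 (largest adjusted p = 0.132). Uck2, the uridine-cytidine kinase of the pyrimidine salvage pathway, was among the smallest p-values of all features. Its ratios were 2.40, 3.19 and 3.06 in I/R, against 0.39, 0.62 and 0.79 in sham, a 4.87-fold increase (difference 2.28 ± 0.23, adjusted p = 3.99e-05), which was 2.52 without replicate 1, 2.27 between the 2 arrays of the shared slide, and passed with slide as a block (adjusted p = 0.00492). Rras2, a Ras-related GTPase, had ratios of 2.11, 2.66 and 2.29 in I/R, against 0.44, 0.73 and 1.03 in sham, and rose by 1.62 ± 0.18 (adjusted p = 5.13e-05, or 0.02 with slide as a block). The cyclin Ccnd2 had ratios of -0.56, -0.63 and -0.79 in I/R, against -0.12, 0.37 and 0.29 in sham, and fell by 0.84 ± 0.14 (adjusted p = 0.0023, or 0.0305 with slide as a block). In the list of muscle ubiquitin ligases and autophagy genes, which holds Trim63, 1 of 19 rose, the autophagosome protein Gabarapl1 (0.91 ± 0.17), and 1 fell, Klhl31, by 1.17 ± 0.29 with a call lost on leaving out I/R 1, sham 1, sham 2 or sham 3 (largest adjusted p = 0.0943). The remaining steady decreases among the 12 largest were Zfp975, a zinc finger gene (-1.14 ± 0.19), the kinase Wnk1 (-1.09 ± 0.21), the tetraspanin Tspan13 (-1.07 ± 0.20) and the repressor Zbtb20 (-1.05 ± 0.21).

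**Figure D5:**
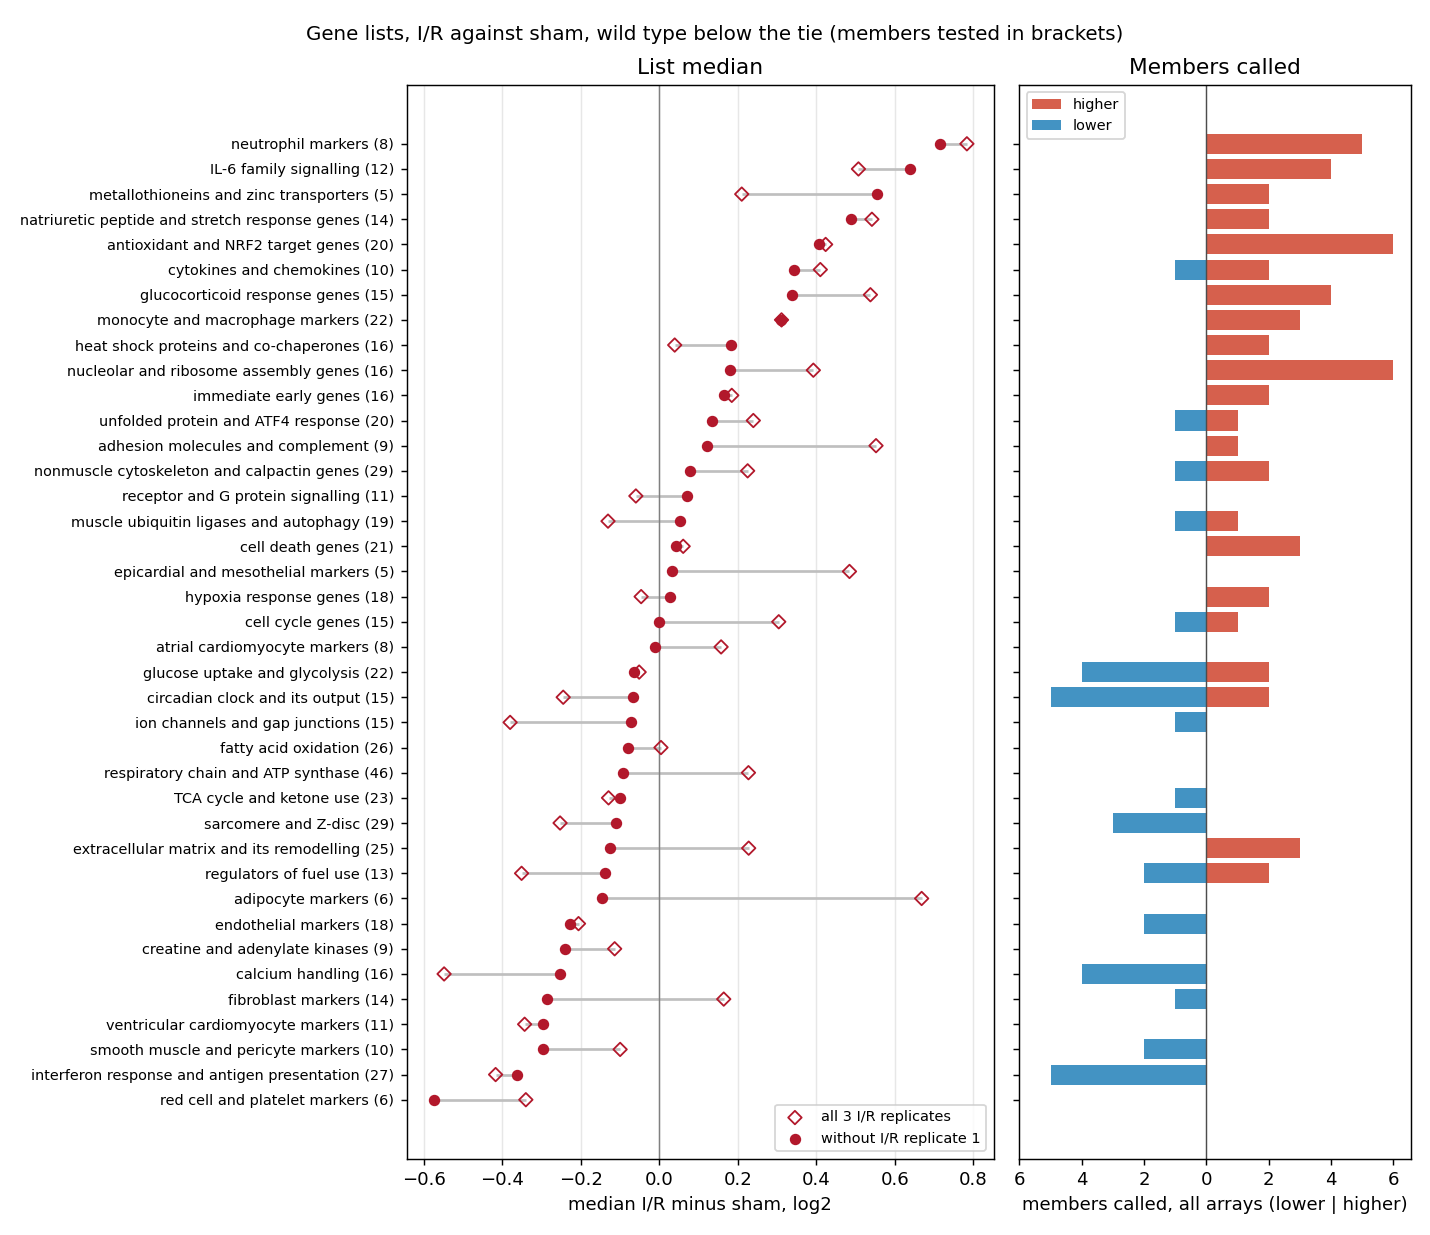
The left panel gives the median I/R minus sham difference (log2) of each gene list with at least 5 tested members, with all 3 I/R replicates (open diamonds) and without replicate 1 (filled circles). The right panel gives the number of members called higher (red, right) and lower (blue, left) with all arrays. IL-6 family genes lie at 0.51 and 0.64 and interferon and antigen genes at -0.42 and -0.36, while adipocyte markers lie at 0.67 with replicate 1 and -0.15 without it.

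Lists of other tissues were used to see what else the pieces held. None of 8 atrial, 6 adipocyte, 5 epicardial, 2 Schwann cell and 3 lung or airway markers was called by limma with all arrays or without replicate 1, and with all arrays 1 epicardial marker and none of the others had an unadjusted p under 0.05. Several of them were higher on the weak array alone: the mean ratio of the adipocyte markers was -0.60, -3.30 and -2.96 on I/R replicates 1 to 3, against -3.00, -2.72 and -3.25 on sham replicates 1 to 3, and that of the lung and airway markers -1.27, -3.17 and -2.94, against -2.81, -2.77 and -2.89. Of 6 tested red cell and platelet markers, 2 were called lower without replicate 1 and none with it. Hba-a1, an alpha globin with a near-identical copy, had ratios of -1.86, -3.31 and -2.92 in I/R, against -1.85, -2.14 and -1.97 in sham, and was called without replicate 1 alone (-1.13, adjusted p = 0.0456). Among all features, the other decreases of this kind with the largest change were Ltbp4, which holds latent TGF-beta in the matrix (-0.95, adjusted p = 0.0185), and Nrp2, a coreceptor for semaphorins and VEGF-C (-0.93, adjusted p = 0.0303). How far the amount of blood or of other tissue moved the other genes was not tested. The largest gaps between I/R replicate 1 and the mean of replicates 2 and 3 among the called features were in Mt2, Pdk4 and Angptl4 upward and in Lynx1, Mtfp1 and Lrtm1 downward. Lrtm1, for example, had ratios of 1.37, 3.06 and 3.12 in I/R, against 4.27, 4.17 and 4.02 in sham, with a difference of -1.63 ± 0.40 and of -1.06 without replicate 1, a call lost on leaving out I/R 1, sham 1, sham 2 or sham 3 (largest adjusted p = 0.0922).

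The same surgery was compared above and below the tie in wild-type hearts. The 2 pieces came from the same hearts, and a difference between the I/R effects was tested feature by feature, without a term for the heart. None of 11419 features passed (0%) in this limma fit or with the heart as a random block. In the fit without that block 206 had an unadjusted p under 0.05. The 3 smallest p-values were those of Arl4a, a small GTPase (0.68 below and 1.40 above), Igfbp6, which binds insulin-like growth factor II (-0.067 and 0.40), and matrix Gla protein Mgp (0.46 and 1.67), each with an adjusted p of 1.00. Without the 5 arrays of weak Cy5 signal in the series, of which 1 was from below and 2 from above in wild-type I/R hearts, 219 features passed. That fit has 1 wild-type I/R array above the tie, which is assumed to vary like the other groups. Side by side, the I/R minus sham differences below and above were 2.28 and 1.44 for Uck2, 5.13 and 4.84 for Mt2, 0.82 and 0.038 for Rcan1, -1.43 and -1.60 for Lmod3, and -1.18 and -1.26 for Kdr.

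The I/R effect below the tie in wild type was also set against that in hearts labelled MuRF1 Tg+. Of 11419 features 2 differed (0.0175%), Sprr2b and Sprr2k, related genes for cornified envelope proteins. Their probes may share signal, which was not tested. In wild type Sprr2b had ratios of -0.20, -0.24 and -0.39 in I/R, against -0.19, -0.21 and -0.18 in sham, with a difference of -0.079 ± 0.095 that did not pass (adjusted p = 0.673), and the difference in Tg+ was -1.33. Without wild-type I/R replicate 1 the count of features whose effect differed by genotype became 2041, so this count moved with that array. On Tg+ I/R replicates 1 to 3 below the tie, 28.3%, 13.5% and 20.1% of Cy5 spots were well above background. The part of weak arrays in this count and in the Tg+ differences was not tested. For Trim63 the difference was -0.69 in wild type and -1.53 in Tg+ (difference between them 0.84, adjusted p = 0.557). For Mt2 it was 5.13 in wild type and 6.18 in Tg+, and for Timp1 2.42 and 3.75, with adjusted p-values of 0.668 and 0.459 for the difference.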

How the data were processed

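Heart (Cy5) and pup (Cy3) RNA were hybridised to 2-colour Agilent arrays, from 50 ng total RNA amplified per the labels' protocols. Heart RNA had the same dye on all 24 arrays, so a dye effect does not cancel within an array. The deposited scanner files hold spot signal and background intensity and a log10 ratio, made with Feature Extraction 9.5.3.1 per the file headers. The deposited series table holds log2 ratios, with unstated centring; its columns correlated at 0.986 or more with the scanner ratios.

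In R 4.3.3 with limma 3.58.1, intensities were background-corrected (normexp, offset 50) and loess-normalized, outlier spots were dropped and spots of a probe averaged. A probe was kept when some group had its Cy5 well above background on each of 3 arrays, and the brightest probe stood for its gene. Means of 8 groups were fitted (16 residual degrees of freedom), with Benjamini-Hochberg adjustment at 0.05. The fit was tested on simulated data with independent noise and the same spread of a feature on every array. The simulation held no weak array and no slide effect, so it cannot show how these bear on the calls. The number of arrays limits the precision.

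Names came from probe accessions matched to RefSeq for 22951 features, and otherwise from current or older symbols or the array's own names. The arrays compared, the 42 gene lists and the tests were chosen with earlier results of these data known. Genes named by rule were Trim63, the 12 largest steady changes each way, up to 4 called members per list, the largest gaps of I/R replicate 1, and the leading interaction and replicate-dependent genes. Further list members, such as Stat3, Per1 or Col1a1, were chosen after their values were seen.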

Additional observations from a re-analysis of the deposited data

Results flagged for a closer look

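The I/R minus sham difference below the tie differed between wild-type and Tg+ hearts in 2 genes by the interaction test. For Sprr2b the wild-type difference minus the Tg+ difference was 1.25, and for Sprr2k it was 0.86. Both genes had a difference near 0 in wild type and a negative one in Tg+ hearts. They are related genes, so the pair may be 1 signal, which was not tested.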

How the results depend on the processing

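Of the 90 named genes that were called, none changed direction under any of the 19 settings run, but many lost their call: 90 in the fit of the 6 arrays alone, 82 with slide as a block, 51 with only the 12 wild-type arrays, 34 on Agilent's log ratio and on the series value table, 23 with no filter on dim probes, 13 on the Cy5 channel alone, 11 with the replicate block, and from 4 to 38 when 1 array was left out. The count of 641 called features became 328 on Agilent's log ratio, 333 on the series value table, 25 with slide as a block, 143 with only the 12 wild-type arrays, 0 with only the 6 arrays compared (limma, 1406 at an unadjusted p under 0.05), 1930 with array weights and 1350 without the 5 arrays under 25% of Cy5 spots. It ranged from 263 to 718 when 1 array was left out. With slide as a block 60% of calls were increases, and 51.7% were on the series value table. With the replicate number as a block the count was 497, and with the heart as a random block it was 640. The deviations of same-numbered I/R and sham arrays correlated at 0.368, 0.035 and 0.176, and not every array correlated best with its own number, so the numbers were not taken to pair the hearts. The difference between pieces gave 1190 calls with array weights, 219 without the weak arrays (which leaves 1 wild-type I/R array above the tie) and from 0 to 2 with 1 array left out. The difference between genotypes gave 0 calls on Agilent's log ratio, on the series value table and with slide as a block, 5097 with array weights, 13 without the weak arrays (which leaves 1 Tg+ I/R array below the tie) and from 2 to 2041 with 1 array left out. A lone array is assumed to vary like the other groups. The cause of these shifts was not tested. Weak Cy5 signal limits I/R replicate 1, where 9.90% of spots were well above background.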

Other observations

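Some changes outside the gene lists were chosen after their values were seen. Ctps, the CTP synthase that makes cytidine nucleotides, had log2 ratios of 1.50, 1.29 and 1.43 in I/R hearts, against 0.51, 0.51 and 0.47 in sham hearts. Its difference of 0.91 ± 0.13 (limma adjusted p = 0.000736) had the same direction as that of the pyrimidine salvage kinase Uck2. Eif4ebp1, a repressor of cap-dependent translation, had ratios of 0.76, 0.71 and 0.59 in I/R, against -0.40, -0.25 and -0.36 in sham, and a difference of 1.03 ± 0.10 (adjusted p = 3.99e-05). Slc3a2, the heavy chain of amino acid transporters, differed by 0.62 ± 0.11 (adjusted p = 0.0023).

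Endothelial genes outside the list, likewise chosen after their values were seen, included Erg and Sox7, transcription factors of endothelium. In the list itself 2 of 18 tested markers were called lower, and 14 differences were negative and 4 positive. Other endothelial genes outside the list were not counted. Erg had ratios of -0.041, 0.44 and 0.55 in I/R, against 1.26, 0.98 and 1.10 in sham, with a difference of -0.80 ± 0.16 (adjusted p = 0.00641). Sox7 differed by -0.73 ± 0.13 (adjusted p = 0.00302), Aplnr, the apelin receptor, by -0.64 ± 0.18 (adjusted p = 0.0413), and Clec14a, an endothelial surface lectin, by -0.41 ± 0.07 (adjusted p = 0.00236).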
